A study of Homo sapiens with 21 samples.

Results

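Mitochondrial ribosomal protein genes were taken as all genes whose symbol in the platform annotation starts with MRPL or MRPS and a number, each read on its probe set with the highest mean. This gave 74 genes of 18132 measured by probe sets that name a single gene, 47 named for the large subunit (MRPL) and 27 for the small subunit (MRPS). MRPL23, MRPL53 and MRPS24 were measured only by probe sets shared with another gene entry and were not used, and MRPL20-AS1, which matches the pattern, is an antisense transcript and was kept apart. MRPS36 stands in the annotation as KGD4 and is not a member. The study treated 4 established human breast cancer cell lines for 6 h with DMSO, 50 nM or 250 nM THZ1. THZ1 binds covalently to CDK7, a kinase within the general transcription factor TFIIH, and inhibits it. MDA-MB-468 and BT-549 are labelled triple-negative, ZR-75-1 is labelled ER+ and T47D ER+/PR+. Each dose had 1 array in BT-549, whose values therefore carry no test, and 2 arrays in each of the other lines. In all, 21 Affymetrix PrimeView arrays in 12 groups were read. For both ER+ lines the source field names MDA-MB-468, against the titles, which were followed. On DMSO arrays the estrogen receptor gene ESR1 read 435 to 448.2 in ZR-75-1 and 884.5 to 927.5 in T47D, against 29.13 to 32.63 in MDA-MB-468 and 18.45 in BT-549. The progesterone receptor gene PGR read 5053 to 5109 in T47D and 399.8 to 458.9 in ZR-75-1, and was not above background in MDA-MB-468 or BT-549.

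The mitochondrial ribosome translates the few proteins encoded by mitochondrial DNA, all of them parts of the respiratory chain and ATP synthase. Its RNAs come from mitochondrial DNA, whereas every one of its proteins is encoded in the nucleus, transcribed by RNA polymerase II, made in the cytosol and imported. Some of these proteins have counterparts in bacterial ribosomes and the others were added in mitochondria. Promoters of nuclear genes for mitochondrial proteins are known for sites of NRF1, of ETS factors such as GABP and of YY1.

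The promoters below, from RefSeq on GRCh38.p14, run from 250 bases before to 50 bases after the start on the gene's own strand. They are shown for 3 genes that were lower in every tested line at 250 nM (MRPS30, MRPL46, MRPL50), for 2 that were higher in every tested line (MRPL52, MRPL28), and for MRPS11, which is read away from MRPL46. Capitals mark AAGATGGC (the core letters of a YY1 site) and CCGGAAG (the core letters of an ETS site), or their reverse complements. The windows lie at chr5:44808697-44808996 (plus strand, MRPS30), chr15:88467339-88467638 (minus strand, MRPL46), chr15:88467458-88467757 (plus strand, MRPS11), chr9:101398569-101398868 (minus strand, MRPL50), chr14:22829637-22829936 (plus strand, MRPL52) and chr16:370489-370788 (minus strand, MRPL28).
MRPS30: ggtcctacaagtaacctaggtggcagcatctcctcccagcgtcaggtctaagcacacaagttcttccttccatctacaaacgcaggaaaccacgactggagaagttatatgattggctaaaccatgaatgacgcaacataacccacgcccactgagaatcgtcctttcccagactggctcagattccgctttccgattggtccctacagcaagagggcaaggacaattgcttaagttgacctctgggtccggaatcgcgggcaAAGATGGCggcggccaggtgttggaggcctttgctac
MRPL46: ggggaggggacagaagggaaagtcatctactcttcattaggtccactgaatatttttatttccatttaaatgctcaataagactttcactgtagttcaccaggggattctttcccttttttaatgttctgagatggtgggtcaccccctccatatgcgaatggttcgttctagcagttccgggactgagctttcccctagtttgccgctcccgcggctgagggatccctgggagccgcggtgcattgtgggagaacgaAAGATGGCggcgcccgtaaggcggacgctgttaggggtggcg
MRPL50: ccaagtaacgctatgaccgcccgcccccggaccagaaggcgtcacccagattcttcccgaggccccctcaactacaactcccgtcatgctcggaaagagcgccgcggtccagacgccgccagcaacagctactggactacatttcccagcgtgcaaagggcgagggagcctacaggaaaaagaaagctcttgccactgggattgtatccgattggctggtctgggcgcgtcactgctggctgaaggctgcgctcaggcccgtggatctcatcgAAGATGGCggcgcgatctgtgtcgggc
MRPS11: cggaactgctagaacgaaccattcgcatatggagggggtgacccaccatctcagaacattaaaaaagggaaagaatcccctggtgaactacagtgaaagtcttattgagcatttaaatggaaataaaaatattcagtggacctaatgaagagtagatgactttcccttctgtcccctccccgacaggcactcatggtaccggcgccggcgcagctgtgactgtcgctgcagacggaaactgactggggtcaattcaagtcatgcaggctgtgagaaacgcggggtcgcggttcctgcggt
MRPL52: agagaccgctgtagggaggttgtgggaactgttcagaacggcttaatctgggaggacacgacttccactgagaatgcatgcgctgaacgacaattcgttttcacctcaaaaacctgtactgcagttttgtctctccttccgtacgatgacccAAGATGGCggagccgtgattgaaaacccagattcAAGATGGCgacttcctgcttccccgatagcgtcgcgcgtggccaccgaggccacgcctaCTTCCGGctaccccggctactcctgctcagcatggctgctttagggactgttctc
MRPL28: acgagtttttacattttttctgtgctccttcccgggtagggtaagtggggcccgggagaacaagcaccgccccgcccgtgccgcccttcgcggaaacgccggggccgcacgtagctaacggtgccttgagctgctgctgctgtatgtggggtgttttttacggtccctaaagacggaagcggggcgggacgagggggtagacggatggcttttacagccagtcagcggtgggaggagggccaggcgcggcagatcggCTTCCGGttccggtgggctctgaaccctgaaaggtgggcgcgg

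All 74 genes passed the filter on low intensity, and all 74 were above the arrays' background probe sets on all 21 arrays. The filter kept genes whose highest group mean was at or above 57.4, the median of all values, and left 12644 genes for testing. Mean intensities of the members ran between 137.1 (MRPL2, with MRPL38 and MRPS31 next) and 4043 (MRPL51, with MRPL3, MRPS15, MRPS21 and MRPL36 next), and since probe sets differ in brightness this is no ranking of RNA levels. The median member stood at 920.2 to 1313 on the 21 arrays. The mean intensity of an array lay between 326.4 and 342.8 on all of them, so a change below is a change relative to the rest of the array. Fewer cells and less RNA per cell cannot be told apart in these bulk samples. Of the members, 28 have 1 probe set, and together they have 164.

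At 250 nM the members changed in both directions, with few large changes. With limma, at a Benjamini-Hochberg adjusted p under 0.05 over the 12644 genes, 16 of 74 members were lower and 18 higher in MDA-MB-468, where 30.3% of all genes were lower and 9.54% higher. In ZR-75-1, 30 members were lower and 9 higher, beside 42.8% and 9.93% of all genes. In T47D, 26 were lower and 3 higher, beside 33.7% and 9.61%. As shares of the 74 members, the lower calls came to 21.6% in MDA-MB-468, 40.5% in ZR-75-1 and 35.1% in T47D, and the higher calls to 24.3%, 12.2% and 4.05% in the same order of lines.

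The median change (log2, THZ1 over DMSO) at 250 nM was 0.06 for the members and -0.07 for all genes in MDA-MB-468. It was -0.09 and -0.18 in ZR-75-1, and -0.14 and -0.08 in T47D. Large decreases were rare among the members, though no genes of like intensity were read beside them. The array median was 9.85 to 10.36 (log2) for members and 6.92 to 7.74 for all tested genes. None of the 74 was called and at least 2-fold lower in MDA-MB-468 or in T47D, where 10.6% and 9.44% of all genes were. In ZR-75-1 only MRPS30, MRPL10 and MRPL46 were, beside 18.1% of all genes. The central 80% of member changes in ZR-75-1 ran between -0.80 and 0.22, against -1.44 and 0.26 for all genes. In MDA-MB-468 the same span was -0.39 to 0.27, against -1.04 to 0.24, and in T47D it was -0.42 to 0.10, against -0.97 to 0.26.

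The split between lower and higher calls depended on the scaling of the arrays, which the deposited values fix in a way the labels do not state. With each array centred on its median the counts of members lower and higher were 7 and 38 in MDA-MB-468, 16 and 29 in ZR-75-1, and 13 and 7 in T47D. Of all genes, 21.8%, 31.6% and 26.1% were then lower and 27.4%, 28.2% and 19.3% higher in the same order. With arrays scaled to the ACTB and GAPDH control probe sets they were 23 and 0, 47 and 0, and 45 and 0 in the same order, beside 38.1%, 57% and 43.4% of all genes lower and 0.609%, 0.498% and 0.862% higher. With quantile normalization they were 18 and 15, 24 and 18, and 24 and 6, beside 22.9%, 30.7% and 24.2% of all genes lower and 24.5%, 32.5% and 26.5% higher. Centring moved the median of all genes at 250 nM from -0.07 to 0.13 in MDA-MB-468. It shifts every gene of an array alike, so the members' median minus that of all genes could not move and was 0.12 there. Quantile normalization can move this difference, and gave -0.02 in MDA-MB-468, -0.07 in ZR-75-1 and -0.10 in T47D. Without it the difference was 0.12, 0.09 and -0.07 in the same order. The count of higher members in MDA-MB-468 was also smaller with any of its DMSO or 250 nM arrays left out. Such a fit has 1 array in a group, so a smaller count cannot be laid to the array left out.

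**Figure D1:**
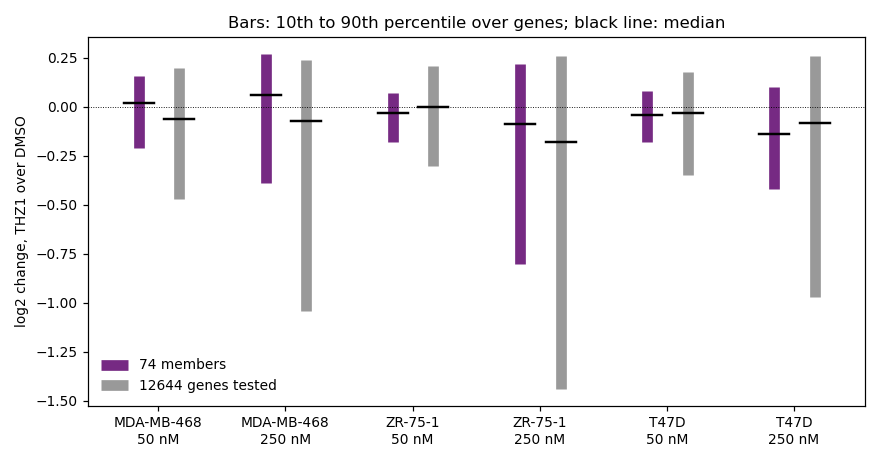
Log2 change, THZ1 over DMSO, in 3 lines at 50 and 250 nM. Bars span the 10th to the 90th percentile over genes, purple for the 74 members and grey for the 12644 genes tested, and the black line is the median; in ZR-75-1 at 250 nM the purple bar ends at -0.80 and the grey bar at -1.44.

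At 250 nM, 12 of 74 members (16.2%) were lower in all 3 tested lines, beside 23% of all genes. They are MRPS30, MRPL46, MRPL10, MRPL36, MRPL50, MRPL15, MRPS2, MRPS17, MRPL17, MRPS26, MRPL16 and MRPS18A. Higher in all 3 lines were MRPL52, MRPL48 and MRPL28, or 4.05% of members beside 3.59% of all genes. A further 12 members (16.2%) were lower in 2 lines, beside 12.1% of all genes, and 20 (27%) had no call in any line, beside 35.1%. The second probe sets of MRPL15 and MRPS18A had no call in any line, with 0.28, 0.21 and 0.02 for MRPL15 and -0.35, 0.10 and 0.36 for MRPS18A in MDA-MB-468, in ZR-75-1 and in T47D. The other probe set of MRPL48 had no call in ZR-75-1 (0.31) or in T47D (0.01). Those of MRPL28 had no call in T47D (0.04 and 0.12). Of the other MRPL52 probe sets, 2 were also called higher in T47D, and the rest were not (0.00 and 0.06). With arrays centred on their median, the members lower in all 3 lines were MRPL10, MRPL46, MRPL50 and MRPS30, and 7 members were higher in all 3. With arrays scaled to ACTB and GAPDH, 20 members were lower in all 3 lines, the 12 above among them, and none was higher. The share of all genes called in all 3 lines was not counted for these other scalings. Their counts of members thus stand alone and are no result about the members in particular. Shares of all genes per line under each scaling are given above. These lists rest on calls made in the same fit, which shares its estimate of spread between lines.

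MRPS30 had the most negative change of all members in MDA-MB-468 and ZR-75-1. Despite its name it sits in the large subunit of the human mitochondrial ribosome. Its intensity was 364.5 and 419 on the 250 nM arrays of MDA-MB-468, against 709.2 and 847.6 on the DMSO arrays (log2 change -0.99, SE 0.08, limma adjusted p 8.82e-08). In ZR-75-1 it was 908.5 and 855.6 with 250 nM, against 2380 and 2405 with DMSO (-1.44, SE 0.08, limma adjusted p 5e-10). In T47D it was 575.1 and 627.4, against 881.9 and 816.5 (-0.50, SE 0.08, limma adjusted p 0.000165). The 250 nM and DMSO arrays did not overlap in any of the 3 lines. The single BT-549 arrays read 512.7 with 250 nM and 726.6 with DMSO.

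MRPS30 did not fall step by step with dose. At 50 nM it was 898.1 and 963.7 in MDA-MB-468, above both DMSO arrays of that line, and was called higher (0.26, SE 0.08, limma adjusted p 0.0411). The same difference missed the threshold without the filter on low intensity, without the variance trend, in a fit of MDA-MB-468 alone and with ACTB and GAPDH scaling (0.18). It was also lost without MDA-MB-468 DMSO replicate 1 (0.13), 50 nM replicate 1 (0.31) or 50 nM replicate 2 (0.21). In T47D the 50 nM arrays read 987.6 and 980 (0.21, limma adjusted p 0.143), and in ZR-75-1 they read 2436 and 2459. The change between the doses, 250 over 50 nM, was -1.25 in MDA-MB-468, -1.47 in ZR-75-1 and -0.71 in T47D, each called lower.

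MRPL46, a mitochondria-specific protein of the large subunit, was lower in all 3 lines. It read 221 and 202.4 with 250 nM in MDA-MB-468, against 363.8 and 399.5 with DMSO (-0.85, SE 0.08, limma adjusted p 3.39e-07). It read 362.9 and 338.3 in ZR-75-1, against 789.2 and 754.4 (-1.14, SE 0.08, limma adjusted p 5.57e-09), and 560.9 and 588.2 in T47D, against 1063 and 911.1 (-0.78, SE 0.08, limma adjusted p 1.15e-06). No 250 nM array reached the DMSO arrays of its line. The BT-549 arrays read 307.7 with 250 nM and 343.9 with DMSO, a log2 change of -0.16 with no test.

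MRPL10, which anchors the stalk of the large subunit and binds MRPL12, read 208.7 and 202.9 with 250 nM in MDA-MB-468, against 342.7 and 362.2 with DMSO (-0.78, SE 0.08). In ZR-75-1 it read 374.8 and 343.9, against 835 and 845.3 (-1.23, SE 0.08), and in T47D 429.1 and 478.6, against 725.7 and 658.1 (-0.61, SE 0.08). The groups were apart in each line, with limma adjusted p of 3.48e-07, 7.73e-10 and 6.22e-06. MRPL10 has 1 probe set, and no promoter window was at hand for it. Its stalk partner MRPL12 had no such change: it was 0.23 in MDA-MB-468, where it was called higher (limma adjusted p 0.00467), -0.01 in ZR-75-1 and -0.02 in T47D, the last of these with arrays at 777.8 and 770.8 against 805.1 and 767.1. The MRPL12 value in ZR-75-1 turned to 0.24 with centred arrays and to 0.18 with quantile normalization.

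MRPL50, a further mitochondria-specific protein of the large subunit, changed by -0.56 in MDA-MB-468, -0.82 in ZR-75-1 and -0.64 in T47D (limma adjusted p 0.000855, 1.23e-05 and 0.000253). Its arrays read 288.5 and 371.8 against 447.1 and 518.6 in MDA-MB-468, 356.2 and 327.2 against 636.5 and 567.1 in ZR-75-1, and 274.4 and 290.9 against 454.4 and 424.2 in T47D, 250 nM before DMSO in each. The 2 arrays at 250 nM in MDA-MB-468 differed by more than those of the other lines, and stayed below both DMSO arrays. In the fit over the 4 lines, MRPL50 had the smallest adjusted p among the lower members (-0.57, SE 0.10, limma adjusted p 0.00174).

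Of the other members lower in all 3 lines, MRPL36 (a small large-subunit protein of bacterial type) changed by -0.42, -0.97 and -0.72 in MDA-MB-468, in ZR-75-1 and in T47D. Its 2 DMSO arrays in ZR-75-1 read 4599 and 3196, a wide gap, with 1992 and 1916 at 250 nM. MRPL17 and MRPL16 changed by less and with little scatter, MRPL17 by -0.34, -0.67 and -0.38 and MRPL16 by -0.40, -0.42 and -0.23. MRPS26 changed by -0.26, -0.78 and -0.34. Like MRPS26, MRPL15, MRPS2 and MRPS17 moved most in ZR-75-1, by -0.89, -0.80 and -0.80.

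**Figure D2:**
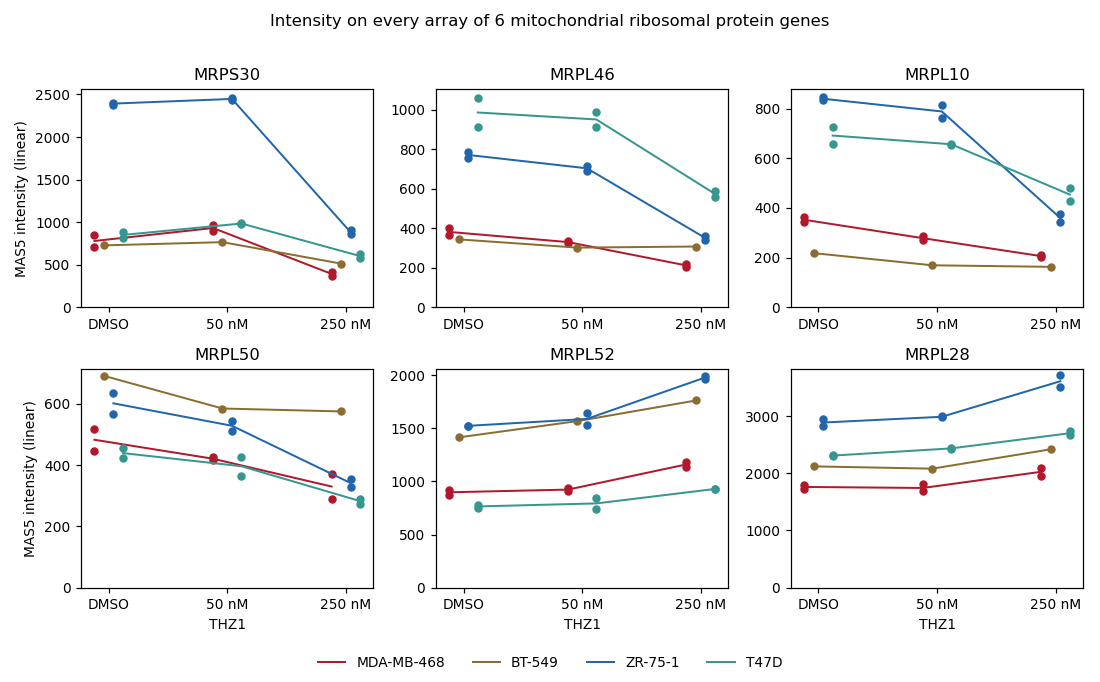
MAS5 intensity on a linear axis for MRPS30, MRPL46, MRPL10, MRPL50, MRPL52 and MRPL28 with DMSO, 50 nM and 250 nM THZ1; points are single arrays and lines join group means of 4 cell lines. MRPS30 in ZR-75-1 stood at 2380 and 2405 with DMSO and at 908.5 and 855.6 with 250 nM, while MRPL52 and MRPL28 were higher at 250 nM in every line.

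MRPL52, a mitochondria-specific protein of the large subunit, was the member with the most positive change in ZR-75-1 and MDA-MB-468. It read 1134 and 1187 with 250 nM in MDA-MB-468, against 921.8 and 873.8 with DMSO (0.37, SE 0.06, limma adjusted p 0.00016). It read 1967 and 1992 in ZR-75-1, against 1523 and 1524 (0.38, SE 0.06, limma adjusted p 7.97e-05), and 928.3 and 929.7 in T47D, against 775 and 754.2 (0.28, SE 0.06, limma adjusted p 0.00174). BT-549 read 1762 with 250 nM and 1415 with DMSO. MRPL28, a large-subunit protein of bacterial type, changed by 0.20, 0.32 and 0.23, and MRPL48 by 0.29, 0.20 and 0.28, in MDA-MB-468, in ZR-75-1 and in T47D. Under ACTB and GAPDH scaling none of the 3 genes was called in any line. The MRPL52 changes were then 0.20, 0.13 and 0.10 in the same order of lines, and the MRPL28 change was 0.07 in ZR-75-1 and 0.04 in T47D.

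Other higher members were MRPL13 (0.31 in MDA-MB-468, 0.24 in ZR-75-1), MRPL40 (0.32 and 0.20) and MRPL24 (0.18 and 0.29), the last a protein near the exit of the peptide tunnel. In T47D the changes of MRPL13, MRPL40 and MRPL24 were 0.08, 0.11 and 0.08, with no call. MRPL13 in ZR-75-1 turned to -0.01 with ACTB and GAPDH scaling. MRPS25 was called higher in MDA-MB-468 (0.27, limma adjusted p 0.00401), yet another of its 5 tested probe sets was called lower there, and its probe sets spanned -0.53 to 0.27. It was the single member with probe sets called in opposite directions. Of 33 called members in MDA-MB-468 when every probe set was tested, 18 had another tested probe set, and 9 of these had one with the same call.

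**Figure D3:**
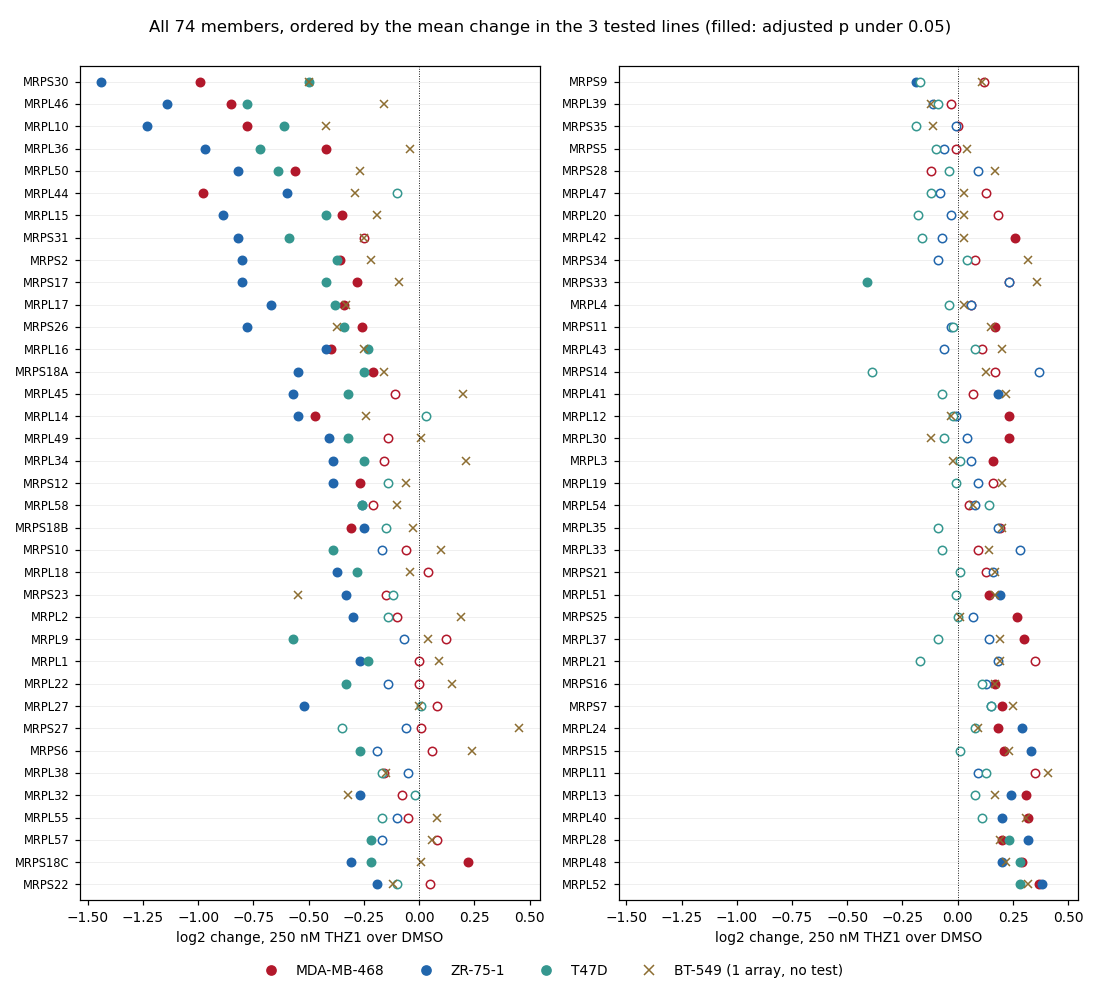
Log2 change at 250 nM THZ1 over DMSO for all 74 members, 1 row per gene, ordered by the mean of 3 lines; filled circles have an adjusted p under 0.05 and crosses are BT-549, with 1 array a dose and no test. MRPS30, MRPL46 and MRPL10 have the lowest means of the 3 lines, and MRPL28, MRPL48 and MRPL52 lie above 0 in all of them.

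The calls were spread over both subunits and over proteins old and new. Of 29 large-subunit proteins of bacterial type, 6, 12 and 10 were lower in MDA-MB-468, in ZR-75-1 and in T47D, and 6, 3 and 1 higher. Of 20 mitochondria-specific large-subunit proteins, 5, 8 and 8 were lower and 6, 5 and 2 higher. Of 15 small-subunit proteins of bacterial type, 3, 5 and 5 were lower, and 5 were higher in MDA-MB-468 and 1 in ZR-75-1. Of 10 mitochondria-specific small-subunit proteins, 2, 5 and 3 were lower, and 1 was higher in MDA-MB-468. Of all genes, 30.3%, 42.8% and 33.7% were lower and 9.54%, 9.93% and 9.61% higher in the same order of lines. The medians of the 4 classes lay between 0.01 and 0.12 in MDA-MB-468, between -0.14 and -0.06 in ZR-75-1, and between -0.17 and -0.12 in T47D. Those of all genes were -0.07, -0.18 and -0.08.

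MRPL3, a large-subunit protein of bacterial type, changed by 0.16 in MDA-MB-468 (called higher), 0.06 in ZR-75-1 and 0.01 in T47D, and turned to -0.01 and -0.19 in MDA-MB-468 and ZR-75-1 with ACTB and GAPDH scaling. MRPS12, at the decoding centre, changed by -0.27 and -0.39 in MDA-MB-468 and ZR-75-1 (called lower) and by -0.14 in T47D. MRPS16 and MRPS22, in which mutations cause combined respiratory chain deficiency, changed by 0.17 and 0.05 in MDA-MB-468, 0.13 and -0.19 in ZR-75-1, and 0.11 and -0.10 in T47D. The 3 tested probe sets of MRPS16 spanned -0.28 to 0.17, -0.36 to 0.13 and -0.30 to 0.11 in the same order of lines. The other MRPS22 probe set gave 0.11 in MDA-MB-468, -0.52 in ZR-75-1, where both were called lower, and -0.48 in T47D, without a call. MRPL58, a ribosome-bound peptidyl-tRNA hydrolase, was called lower in ZR-75-1 and T47D, by -0.26 in both. MRPL11 changed by 0.35 in MDA-MB-468, with an SE of 0.17 and no call. KGD4, the annotation's entry for MRPS36, changed by 0.18, 0.06 and -0.15, with no call.

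The 3 human paralogs of one bacterial small-subunit protein, MRPS18A, MRPS18B and MRPS18C, did not move together. MRPS18A, which sits in the large subunit, was lower in all 3 lines, by -0.21, -0.55 and -0.25 in MDA-MB-468, in ZR-75-1 and in T47D, though the mean of its probe sets gave 0.05 in T47D. MRPS18B changed by -0.31, -0.25 and -0.15, the last without a call. MRPS18C was called higher in MDA-MB-468, with 1693 and 1706 at 250 nM against 1413 and 1505 with DMSO (0.22, limma adjusted p 0.00551). It was called lower in ZR-75-1, with 1115 and 1070 against 1350 and 1351 (-0.31), and in T47D, with 892.9 and 907.3 against 1037 and 1067 (-0.22). MRPS18C was the single member with calls in opposite directions, 1.35% of members and 1.35% of all genes. Its other 2 probe sets had no call in any line, with 0.39 and 0.33 in MDA-MB-468, 0.19 and -0.14 in ZR-75-1, and -0.08 and 0.15 in T47D.

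At 50 nM few members changed. In MDA-MB-468, MRPL17 (-0.29), MRPL16 (-0.23) and MRPL10 (-0.34) were lower and MRPS30 (0.26) and MRPS25 (0.20) higher, beside 14.6% and 4.42% of all genes. In ZR-75-1, MRPL17 (-0.30) and MRPS26 (-0.19) were lower, beside 5.68% of all genes, and no member was higher, beside 2.79%; at an unadjusted p under 0.05, limma had 2 members higher. In T47D, MRPL45 (-0.33) was lower and MRPL14 (0.21) higher, beside 7.56% and 1.99%. MRPL17 read 946.9 and 956.1 with 50 nM in MDA-MB-468, against 1122 and 1209 with DMSO, and 1304 and 1182 in ZR-75-1, against 1526 and 1535. Its 50 nM arrays were below the DMSO arrays in both lines.

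MRPL45, which binds the mitochondrial ribosome to the inner membrane near the peptide exit, read 878.1 and 955.6 with 50 nM in T47D, against 1134 and 1164 with DMSO (limma adjusted p 0.0138). In MDA-MB-468 and ZR-75-1 it changed by -0.22 and -0.25 at 50 nM, short of the threshold. MRPL14 read 1357 and 1316 in T47D, against 1198 and 1109 (limma adjusted p 0.0289). With arrays centred on their median, limma called 0 members lower at 50 nM in each of the 3 lines. Of all genes, 8.44%, 4% and 4.98% were then lower in MDA-MB-468, in ZR-75-1 and in T47D. The members called higher were 13, 0 and 0 in the same order, beside 12.9%, 2.02% and 1.74% of all genes.

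Between the doses, 250 over 50 nM, 13 members were lower and 9 higher in MDA-MB-468, beside 23.2% and 5.73% of all genes. In ZR-75-1, 29 were lower and 10 higher, beside 41.7% and 6.64%, and in T47D 21 were lower and 4 higher, beside 27.2% and 4.59%. These comparisons share their 250 nM arrays with the comparisons against DMSO. The lower count in T47D was 11 without 50 nM replicate 1, and 13 without 50 nM replicate 2 or 250 nM replicate 1, and the higher count there was 0 or 1 with any of the 4 arrays left out. In MDA-MB-468 the lower count was 7 without 50 nM replicate 2 and 8 without 250 nM replicate 1, and the higher count was 5 without 50 nM replicate 1, 2 without 50 nM replicate 2 and 4 without 250 nM replicate 2.

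The size of the 250 nM change differed between lines for a part of the members. With the change in MDA-MB-468 set against the mean of the changes in both ER+ lines, 2 members were lower and 11 higher in MDA-MB-468, beside 5.12% and 13.9% of all genes. The higher count was 2 without MDA-MB-468 DMSO replicate 1, and 6 without its 250 nM replicate 2 or without T47D DMSO replicate 1. MRPL44, a large-subunit protein with a ribonuclease fold, had the more negative of these 2 differences (-0.63, SE 0.13, limma adjusted p 0.00255). It read 275 and 265.5 with 250 nM in MDA-MB-468, against 541.8 and 521.9 with DMSO. In ZR-75-1 it read 253.8 and 251.1, against 392.2 and 374.6, and in T47D 497.8 and 468.6, against 530 and 504. MRPL44 was thus apart from DMSO on every array of all 3 lines, by -0.98, -0.60 and -0.10, the last without a call. With quantile normalization its ZR-75-1 change was -0.16 and missed the threshold.

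MRPL14, which sits at the interface of the subunits, fell at 250 nM in MDA-MB-468 (1061 and 1088, against 1455 and 1531) and in ZR-75-1 (896.1 and 920.5, against 1296 and 1361). In T47D it read 1155 and 1207 with 250 nM, against 1198 and 1109 with DMSO. The changes were -0.47, -0.55 and 0.03 in the same order. On the other side, the change was higher in MDA-MB-468 for MRPS18C (difference 0.49, SE 0.07), MRPL45 (0.34), MRPL15 (0.31) and MRPS26 (0.30). Their limma adjusted p were 0.000186, 0.0207, 0.0173 and 0.00589. In MDA-MB-468, in ZR-75-1 and in T47D, MRPL15 changed by -0.35, -0.89 and -0.42 and MRPS26 by -0.26, -0.78 and -0.34. Both were thus lower in every line, with MDA-MB-468 nearer to T47D than to ZR-75-1. MRPL45 changed by -0.11, -0.57 and -0.32.

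With the change in ZR-75-1 set against that in T47D, 12 members were lower and 4 higher in ZR-75-1, beside 19.8% and 2.44% of all genes. The lower count was 7 without T47D DMSO replicate 2, and the higher count ran from 0 to 3 with single arrays left out. The lower differences were led by MRPS30 (-0.94, SE 0.12, limma adjusted p 3.5e-05), MRPL14 (-0.58), MRPL10 (-0.62) and MRPS26 (-0.43). The 4 members on the other side were MRPS33 (0.63, SE 0.19), MRPS14 (0.76, SE 0.24), MRPL51 (0.20, SE 0.07) and MRPL41 (0.25, SE 0.08). MRPS14 read 2163 and 1925 with 250 nM in ZR-75-1, against 1807 and 1377 with DMSO, and 1242 and 1323 in T47D, against 1810 and 1566. Its DMSO arrays in ZR-75-1 were far apart, and neither line's own change was called (0.37 and -0.39). Over its 3 tested probe sets the change spanned -0.12 to 0.37 in ZR-75-1 and -0.39 to 0.01 in T47D. The probe set used was thus the extreme one in both lines. MRPS33 read 1651 and 1455 in ZR-75-1, against 1453 and 1208, so that one 250 nM array lay only just above the DMSO arrays (change 0.23, no call). In T47D it read 919.8 and 908.3, against 1232 and 1192, well apart (-0.41, called lower).

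**Figure D4:**
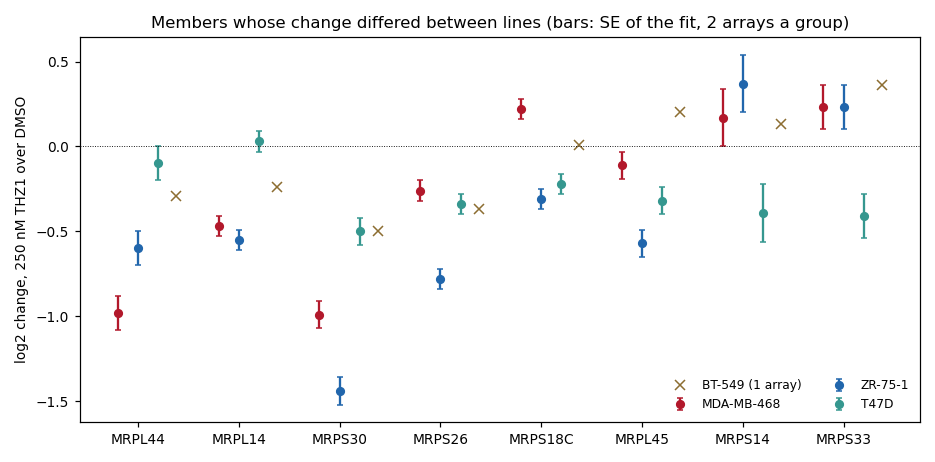
Log2 change at 250 nM THZ1 over DMSO for 8 members in MDA-MB-468, in ZR-75-1 and in T47D, with the standard error of the fit as bars, and in BT-549 as crosses (1 array a dose). MRPL44 and MRPL14 were near 0 in T47D and below 0 in MDA-MB-468 and ZR-75-1; MRPS18C was above 0 in MDA-MB-468 and below it in ZR-75-1 and T47D.

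In BT-549, no member changed by 1.5-fold at 250 nM in either direction, whereas 16.5% of all genes were at least 1.5-fold lower and 1.88% higher. At 50 nM again no member did, beside 10.1% and 1.23% of all genes. Member changes at 250 nM ran from -0.55 for MRPS23 (844.2 with 250 nM, 1235 with DMSO) to 0.45 for MRPS27 (834 and 612.5). These 2 were named after their values were seen. The median was 0.04 for members and 0.01 for all genes. With 1 array per dose there is no replicate check.

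In a fit over the 12 line-by-dose means with a term for the line, which gives each of the 4 lines the same weight, 19 members were lower and 12 higher at 250 nM, beside 29.9% and 9.48% of all genes. The higher count was 3 without MDA-MB-468 and 6 without BT-549, and the lower count 12 without ZR-75-1. MRPL50, MRPS30 (-0.86), MRPL16 (-0.32), MRPL17 (-0.43), MRPL10 (-0.76) and MRPL46 (-0.73) led the lower members. MRPL52 (0.34, SE 0.05, limma adjusted p 0.000597), MRPL28 (0.23), MRPL48 (0.25), MRPL40 (0.23), MRPL13 (0.20) and MRPS7 (0.19) led the higher ones. At 50 nM limma called no member, beside 0.316% of all genes lower and 0.182% higher; at an unadjusted p under 0.05, 4 members were lower and 2 higher. Across the 74 members the 250 nM changes of MDA-MB-468 and ZR-75-1 had a Pearson correlation of 0.86, those of MDA-MB-468 and T47D of 0.62, and those of ZR-75-1 and T47D of 0.72. Over all 12644 genes these were 0.80, 0.74 and 0.81. The points of each are genes from the same few arrays, so the values describe these arrays only.

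The lines already differed without THZ1, in these genes as in genes at large. In DMSO arrays, 32 members (43.2%) were lower and 24 (32.4%) higher in MDA-MB-468 than in the mean of the ER+ lines. Of all genes, 34.4% and 33.1% were. Between ZR-75-1 and T47D, 29 members (39.2%) were lower and 29 (39.2%) higher in ZR-75-1, beside 37.1% and 25.9% of all genes. MRPL4 read 1170 and 1252 in MDA-MB-468, against 532.2 and 533 in ZR-75-1 and 264.2 and 268.9 in T47D. MRPL24 ran the other way, with 961.4 and 928.4 in MDA-MB-468, against 2501 and 2557 in ZR-75-1 and 3308 and 3254 in T47D. MRPS30, at 2380 and 2405 in ZR-75-1 against 881.9 and 816.5 in T47D, was among the members higher in ZR-75-1 (limma adjusted p 2.74e-10). MRPL51 differed by 1.21, with 5635 and 5537 in ZR-75-1 and 2425 and 2410 in T47D. MRPL39 (1.03), MRPS17 (1.17) and MRPS15 (0.88) were also higher in MDA-MB-468, and MRPS11 (-1.22), MRPS23 (-1.27) and MRPS25 (-1.32) lower. MRPS5 (1.02) and MRPL4 (1.00) were higher in ZR-75-1 than in T47D, and MRPS22 (-1.01) and MRPL45 (-1.13) lower. MRPL47 and MRPL22 were lower in ZR-75-1 than in T47D, each by -1.30.

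Lists of other genes around the mitochondrial ribosome were read in the same fit at 250 nM, where 30.3%, 42.8% and 33.7% of all genes were lower and 9.54%, 9.93% and 9.61% higher in MDA-MB-468, in ZR-75-1 and in T47D. Of 4 ribosome proteins with other symbols, DAP3 (0.20) was higher in MDA-MB-468, GADD45GIP1 (0.20) was higher in ZR-75-1 and PTCD3 (-0.24) was lower in T47D. Of 20 assembly factors, 11, 13 and 12 were lower in MDA-MB-468, in ZR-75-1 and in T47D, with medians of -0.33, -0.55 and -0.36, and the single higher call was YBEY in MDA-MB-468 (0.29). MRM2 and MRM3, which methylate the large ribosomal RNA of mitochondria, were lower in every tested line, MRM2 by -0.99, -1.72 and -1.16 and MRM3 by -1.01, -1.11 and -0.91. FASTKD2, an RNA-binding protein needed for large-subunit assembly, changed by -0.77, -1.09 and -0.64. These lists, like the members, were drawn up with earlier results of these data known, and no test of a list against other genes was made.

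Of 15 factors of mitochondrial translation, 3, 6 and 5 were lower and 2, 3 and 2 higher in MDA-MB-468, in ZR-75-1 and in T47D, with medians of 0.02, -0.09 and -0.10. TUFM, the mitochondrial elongation factor Tu, was higher in all 3 (0.27, 0.28 and 0.23), as was SLIRP, a partner of LRPPRC in mitochondrial mRNA stability (0.30, 0.23 and 0.28). MTRFR, a factor that rescues stalled ribosomes, was lower by -2.11, -2.23 and -2.23. Of 10 genes that transcribe or copy mitochondrial DNA, 6, 8 and 6 were lower and 1 was higher in each line, with medians of -0.42, -1.30 and -0.79. SSBP1, the mitochondrial single-stranded DNA-binding protein, was higher in MDA-MB-468 (0.30) and in ZR-75-1 (0.21), and changed by 0.11 in T47D without a call. TEFM, the mitochondrial elongation factor of transcription, changed by -1.44, -1.81 and -1.18, and TWNK, the helicase, by -1.08, -2.05 and -1.02. TFAM, which packs mitochondrial DNA and starts its transcription, changed by -0.14, -0.17 and -0.05, with no call. POLRMT, the mitochondrial RNA polymerase, changed by -0.07, -0.30 and 0.22, called lower in ZR-75-1 and higher in T47D.

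Among 8 nuclear regulators of mitochondrial genes, 5, 7 and 5 were lower in MDA-MB-468, in ZR-75-1 and in T47D, and 0, 0 and 1 higher. The higher one was PPARGC1B, a coactivator of the PGC-1 family, with 0.64 in T47D (limma adjusted p 0.000242), against -0.37 and -0.29 in MDA-MB-468 and in ZR-75-1, both called lower. MYC changed by -4.23, -2.29 and -2.18, PPRC1, another coactivator of that family, by -1.98, -2.38 and -1.35, and NRF1 by -1.29, -1.05 and -1.06, all called lower. GABPA, the DNA-binding subunit of GABP, changed by -0.08, -0.36 and -0.33 and was called lower in ZR-75-1. YY1 changed by -0.13, -0.55 and -0.08, and was called lower in ZR-75-1. The counts of members lower or higher stand beside these values, and a link between them was not tested.

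Of the 74 members, 67 had an entry in the RefSeq promoter table, with 83 windows of 300 bases in all. The letters AAGATGGC, searched on both strands, stood in 22 of 83 member windows (26.5%), beside 4.5% of 15046 windows of tested genes and 2.89% of all 35116 windows. CCGGAAG stood in 32 of 83 (38.6%), beside 15.8% and 10.3%. The core of an NRF1 site, with 1 free base, stood in 12% of member windows, beside 9.38% and 5.78%, and with no base free in 1.2%, beside 1.81% and 1.24%. The E-box CACGTG stood in 10.8%, beside 9.19% and 7.26%. TATAAA stood in 3.61%, beside 6.72% and 11.5%. These shares carry no test. Of the 11 windows of members lower in all 3 lines, 5 held AAGATGGC and 3 held CCGGAAG, and of the 72 windows of the other members 17 and 29 did.

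In the printed windows AAGATGGC begins at base 14 of the transcript in MRPS30, base 9 in MRPL46 and base 24 in MRPL50, and it stands in 2 copies before the start in MRPL52, whose other capitals are an ETS match. The letters hold ATG, so that a match just after a start can overlap the first codon, which was not tested. The MRPL28 window has an ETS match only, and the MRPS11 window has neither of the capitalised motifs. A match is a run of letters and not a bound site. The share of members with a given motif was read on windows, of which a gene may have several that overlap.

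Members often face another gene. A protein-coding gene read in the opposite direction started within 1000 bases of 21 of 67 members (31.3%), against 1598 of 10209 tested protein-coding genes (15.7%). MRPL46 and MRPS11 are such a pair on chromosome 15, with starts 320 bases apart and overlapping windows. At 250 nM MRPS11 read 782.1 and 768.6 in MDA-MB-468, against 697.2 and 678.1 with DMSO (0.17, called higher). Of its 5 tested probe sets no other was called there, with 0.08, 0.07, -0.08 and -0.24. In ZR-75-1 MRPS11 read 1376 and 1350, against 1381 and 1406, and in T47D 1738 and 1884, against 1888 and 1778. MRPL46 was lower in all 3 lines, while its neighbour changed by 0.17, -0.03 and -0.02. The difference between the 2 genes was not tested.

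Other pairs, named here after their values were seen, ran in several ways. MRPL50 and ZNF189, with starts 233 bases apart, were both lower in every line, ZNF189 by -0.96, -1.79 and -1.85. GGA3, facing MRPS7, was lower by -0.80, -1.72 and -0.65, while MRPS7 changed by 0.20, 0.15 and 0.15. SKA3, facing MRPL57, was lower by -0.85, -1.74 and -1.52. MRPL57 changed by 0.08, -0.17 and -0.22 on its brightest probe set, while its other 3 were all called lower in ZR-75-1 (-1.23, -0.91 and -0.36) and in T47D (-0.59, -0.60 and -0.56). HELQ, facing MRPS18C, was lower by -0.59, -1.77 and -1.81, beside 0.22, -0.31 and -0.22 for MRPS18C. MRPS2 was lower by -0.36, -0.80 and -0.37, whereas PIERCE1 across from it changed by 0.42, 0.07 and -0.09.

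**Figure D5:**
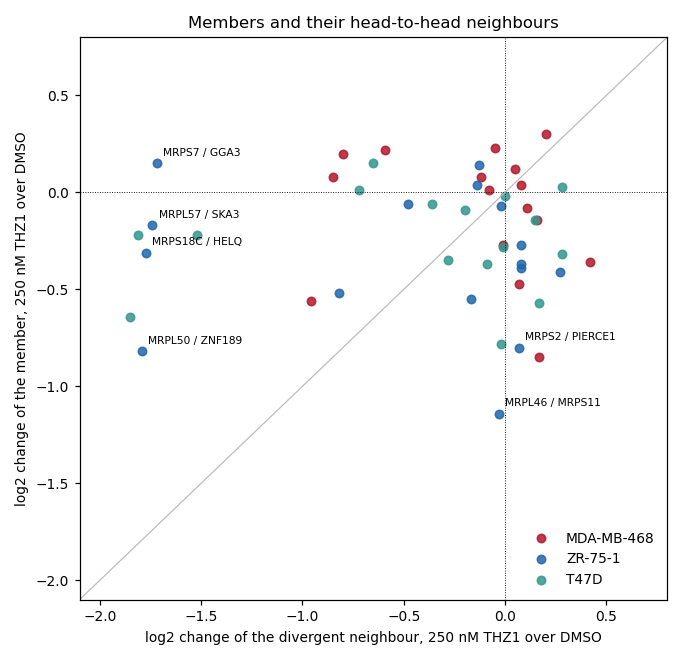
Log2 change at 250 nM THZ1 over DMSO of 16 members (vertical) and of the protein-coding genes read away from them (horizontal) in 3 lines, for starts at most 300 bases apart and for MRPL46 with MRPS11; the grey line marks equal change. MRPL46 lies well below 0 on the vertical axis with MRPS11 near 0, and MRPS7 lies at 0.20, 0.15 and 0.15 with GGA3 below 0 in all 3 lines.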

How the data were processed

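The values are linear microarray intensities deposited by the authors, made with MAS5 per the submitters' processing notes. How the arrays were scaled is not stated there. Per the labels, RNA was spiked with ERCC controls in proportion to cell number, but the table does not name their probe sets, so the planned scaling to controls used the ACTB and GAPDH probe sets. Intensities were floored at 1, taken as log2 and not rescaled. Probe sets that name 1 gene were kept (44994 of 49395), and each gene was read on its brightest probe set. Genes whose highest group mean was at or above 57.4 were tested.

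Tests were made with limma 3.58.1 in R 4.3.3 (lmFit, then eBayes with a trend) across all 12644 genes on the 18 arrays of the 3 replicated lines, with Benjamini-Hochberg adjustment. The 4-line fit used 12 line-by-dose means with a line term and 6 residual degrees of freedom. Every call is at an adjusted p under 0.05. The procedure was tested on simulated data. The number of arrays limits the precision: with 2 arrays a group from labels that do not state separate cultures, p-values measure the spread between arrays, which may be technical. For ZR-75-1 and T47D the source field names another line than the title and the cell line field, and the title and cell line were followed.

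Members and lists were chosen with earlier results of these data known. Genes named were, per line and direction, up to 4 called members with the largest moderated statistics at 250 nM and up to 2 at 50 nM, up to 4 per difference contrast and 6 in the 4-line fit, the 5 highest and 3 lowest means, a fixed set (MRPL12, MRPL3, MRPL11, MRPS12, MRPS22, MRPS16, MRPS30, MRPL44, MRPL58, MRPS18A, MRPS18B, MRPS18C and MRPS36), and genes from the surrounding lists (of the up to 3 called per list and direction, some are given), with DAP3, TUFM, TFAM, POLRMT, NRF1, GABPA, PPRC1 and MYC. The other members lower in all 3 lines, MRPL10 at 50 nM, YY1, the receptor genes and the facing genes were chosen after their values were seen. Alternatives were 3 other scalings, no filter, the mean of a gene's probe sets, no trend, an offset of 16, fits of single lines, a replicate block, and each array left out. Promoter windows of 300 bases came from RefSeq on GRCh38.p14. Figures were drawn with matplotlib 3.10.9.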

Additional observations from a re-analysis of the deposited data

Results flagged for a closer look

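The change at 250 nM differed between lines, by a test of the difference itself in limma, for the 14 values named here. For MDA-MB-468 against the mean of the ER+ lines they were MRPL44 (-0.63), MRPL14 (-0.22), MRPS18C (0.49), MRPS26 (0.30), MRPL15 (0.31) and MRPL45 (0.34), as differences in log2 change. MRPL15 and MRPS26 were lower in all 3 lines, and their changes in MDA-MB-468 were nearer to those in T47D than in ZR-75-1. For ZR-75-1 against T47D they were MRPS30 (-0.94), MRPL14 (-0.58), MRPL10 (-0.62), MRPS26 (-0.43), MRPS33 (0.63), MRPS14 (0.76), MRPL51 (0.20) and MRPL41 (0.25). The differences of MRPL14 in the first comparison and of MRPL41 in the second had adjusted p close to the threshold (0.0434 and 0.0445). MRPS33 and MRPS14 had standard errors of 0.19 and 0.24, the largest among these genes. For MRPS14 the probe set used was the extreme one of 3 tested, in ZR-75-1 and in T47D. No group had 4 or more arrays, so no array was tested for standing apart.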

How the results depend on the processing

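Counts of members are given as lower and higher calls. For the other scalings, brackets hold the share of all genes called the same way. Counts under the other settings stand without such a share. With arrays centred on their median, counts at 50 nM were 0 (8.44%) and 13 (12.9%) in MDA-MB-468. They were 0 lower (4%) in ZR-75-1, and 0 (4.98%) and 0 (1.74%) in T47D. At 250 nM they were 7 (21.8%) and 38 (27.4%), 16 (31.6%) and 29 (28.2%), and 13 (26.1%) and 7 (19.3%) in the same order. For 250 over 50 nM, 7 were lower in MDA-MB-468 (19.6%) and 10 in T47D (22%). In ZR-75-1, 13 were lower (30.7%) and 26 higher (23.2%). The difference of MDA-MB-468 from the ER+ lines gave 1 (4.51%) and 7 (12.4%), and that of ZR-75-1 from T47D 4 lower (11.4%). The 4-line fit at 250 nM gave 26 higher (30.1%). With quantile normalization, 6 were lower in MDA-MB-468 (11.2%) and 2 lower (5.75%) and 2 higher (4.29%) in T47D at 50 nM. At 250 nM, 18 were higher in ZR-75-1 (32.5%) and 6 in T47D (26.5%). For 250 over 50 nM, 17 were higher in MDA-MB-468 (18.6%), with 17 lower (28.9%) and 21 higher (29.7%) in ZR-75-1. The difference of MDA-MB-468 from the ER+ lines gave 4 (7.66%) and 6 (10%), and the 4-line fit 19 higher (32.1%). With ACTB and GAPDH scaling at 50 nM, 0 were higher in MDA-MB-468 (1.05%) and 1 lower in ZR-75-1 (4.94%). In T47D, 0 were then lower (5.93%) and 0 higher (0.838%). At 250 nM, 0 were higher in any line (0.609%, 0.498% and 0.862%), and 47 were lower in ZR-75-1 (57%) and 45 in T47D (43.4%). For 250 over 50 nM, 1 was higher in MDA-MB-468 (0.688%), 0 in ZR-75-1 (0.53%) and 0 in T47D (0.214%). The difference of MDA-MB-468 from the ER+ lines gave 1 (3.12%) and 6 (10.9%), that of ZR-75-1 from T47D 0 higher (1.06%). DMSO arrays gave 8 higher (20.4%) for MDA-MB-468 against the ER+ lines, and 48 lower (66.4%) and 12 higher (10.8%) for ZR-75-1 against T47D. The cause of these moves was not tested.

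Without the filter, 0 were higher in MDA-MB-468 and 1 lower in ZR-75-1 at 50 nM, 2 higher in T47D for 250 over 50 nM, 1 lower for MDA-MB-468 against the ER+ lines, and 2 higher for ZR-75-1 against T47D. With the mean of a gene's probe sets, 5 were lower in MDA-MB-468 and 2 in T47D at 50 nM, and 0 higher in T47D for 250 over 50 nM. Without the trend, 0 were higher in MDA-MB-468, 1 lower in ZR-75-1 and 0 higher in T47D at 50 nM. For 250 over 50 nM, 5 were then higher in MDA-MB-468 and 1 in T47D, and the differences gave 1 and 7 for MDA-MB-468 and 1 higher for ZR-75-1. The 4-line fit gave 6 higher. In fits of 1 line alone at 50 nM, 5 were lower and 0 higher in MDA-MB-468, 0 lower in ZR-75-1 and 5 lower in T47D. An offset of 16 moved no count by over 1.5 times. Labels give the arrays replicate numbers, but deviations of same-numbered arrays correlated between -0.22 and 0.29, so the numbers were not read as pairs. With a replicate block, 2 were lower in T47D at 50 nM and 1 for MDA-MB-468 against the ER+ lines, and no other count moved by over 1.5 times.

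Leaving out each array in turn at 50 nM, counts ran between 2 and 3 lower and 0 and 6 higher in MDA-MB-468, 0 and 2 lower and 0 and 1 higher in ZR-75-1, and 0 and 1 in either direction in T47D. At 250 nM they ran between 13 and 16 lower and 8 and 12 higher in MDA-MB-468, 25 and 29 lower and 7 and 11 higher in ZR-75-1, and 18 and 22 lower in T47D with 3 higher. For 250 over 50 nM they ran between 7 and 14 lower and 2 and 6 higher in MDA-MB-468, 23 and 31 lower and 8 and 12 higher in ZR-75-1, and 11 and 15 lower and 0 and 1 higher in T47D. MDA-MB-468 against the ER+ lines gave 1 to 2 lower and 2 to 16 higher, with 2 higher without MDA-MB-468 DMSO replicate 1 and 6 without its 250 nM replicate 2 or T47D DMSO replicate 1. ZR-75-1 against T47D gave 7 to 13 lower (7 without T47D DMSO replicate 2) and 0 to 3 higher. DMSO arrays gave 29 to 31 lower and 22 to 25 higher for MDA-MB-468, and 25 to 27 lower and 26 to 29 higher for ZR-75-1. The 4-line fit at 250 nM gave 3 higher without MDA-MB-468, 6 higher without BT-549 and 12 lower without ZR-75-1, within 12 to 21 lower and 3 to 16 higher. It gave 0 and 0 at 50 nM whichever line was left out. Where 1 array was left out, its group had 1 array left, so a smaller count cannot be laid to that array.

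Values of single genes that changed sign were MRPS25 in MDA-MB-468 at 50 nM (-0.01 with the mean of probe sets) and MRPS18A in T47D at 250 nM (0.05, the same setting). With ACTB and GAPDH scaling at 250 nM they were MRPL13 in ZR-75-1 (-0.01), MRPL3 in MDA-MB-468 (-0.01) and ZR-75-1 (-0.19), and MRPS16 in MDA-MB-468 (0.00). In ZR-75-1 at 250 nM they were MRPL12 (0.24 centred, 0.18 quantile), MRPS22 (0.06 centred), MRPS18B (0.00 centred) and MRPL58 (0.03 quantile). Every member was above background on every array. With 2 arrays a group and small changes, the number of arrays and the unknown scaling limit these counts.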
